A study of Mus musculus with 18 samples.

Results

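Rian, Meg3 and Snhg11 are 3 genes whose RNA products are long and noncoding. Their members here are the 9 probe sets, of 22626 on the array, whose single symbol in the array's annotation is one of these names: 3 for Rian, 5 for Meg3 and 1 for Snhg11. Probe sets of the same gene share its RNA and are no replicates, so counts of them are not counts of separate results. The genes were chosen with earlier results of these data in view, in particular with the higher signal of Rian in the oculomotor nucleus than in the spinal cord of 6-week mutants, and which other values led to the choice is not recorded. Their differences between the regions are therefore given as a description, with no test. The change from 6 to 10 weeks in mutants starts from the same 6-week arrays and is described in the same way, while genotype at 10 weeks was tested. The 10-week arrays entered regional comparisons too. If their values helped the choice, the genotype p-values are too favourable, also those for genotype by region, and they are read with that limit.

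The samples were total RNA from the oculomotor nucleus, a midbrain motor nucleus that moves the eyes, and from the cervical spinal cord of mice. The mice belonged to a model of amyotrophic lateral sclerosis (ALS). Each region was sampled in mutants of 6 weeks, mutants of 10 weeks and controls of 10 weeks, on 3 arrays per region and condition. The labels name neither the mutation, the strain, nor any pooling of animals, and they do not say what the controls carry. No controls of 6 weeks were measured, so age in the mutants cannot be told apart from the course of the disease or from anything else that differed between the 6-week and the 10-week arrays. Nothing in the labels ties an array to an animal of its own, so the p-values speak only of the scatter among these arrays, part of which may be technical.

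Meg3 and Rian lie in the imprinted Dlk1-Dio3 domain of chromosome 12. There the noncoding RNAs Meg3, Rian and Mirg are transcribed from the maternal chromosome, and the protein-coding genes Dlk1, Rtl1 and Dio3 mainly from the paternal one. Meg3 is a nuclear RNA that is abundant in brain and has been studied as a regulator of chromatin and of p53. Rian is a host transcript, whose introns carry small nucleolar RNAs and microRNAs. Snhg11 is a small nucleolar RNA host gene on chromosome 2, known for its expression in neurons. In RefSeq's mouse table the stretch annotated as Rian holds 3 microRNA genes, Mir341, Mir1188 and Mir370, and 11 small nucleolar RNA genes. Meg3 holds 2 microRNA genes, Mir1906-1 and Mir770, and Snhg11 holds 2 small nucleolar RNA genes. Among long noncoding and protein-coding genes, apart from those with only a Gm or LOC name, Meg3 lies between Dlk1 and Rtl1 in that table, Rian between 6430411K18Rik and Mirg, and Snhg11 between Snhg17 and Ralgapb. The small RNAs themselves were not measured by these probe sets.

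The promoters are shown because each of the 3 genes had a probe set that was higher in the mutant spinal cord at 10 than at 6 weeks. That change is only described below, Rian 1452899_at went the other way, and shared regulation was not tested. The windows are RefSeq's for GRCm38.p6, 300 bases from 250 before to 50 after the annotated start, written 5′ to 3′ in lower case with matches to searched motifs in capitals.
Meg3 promoter window, chr12:109540746-109541045, + strand: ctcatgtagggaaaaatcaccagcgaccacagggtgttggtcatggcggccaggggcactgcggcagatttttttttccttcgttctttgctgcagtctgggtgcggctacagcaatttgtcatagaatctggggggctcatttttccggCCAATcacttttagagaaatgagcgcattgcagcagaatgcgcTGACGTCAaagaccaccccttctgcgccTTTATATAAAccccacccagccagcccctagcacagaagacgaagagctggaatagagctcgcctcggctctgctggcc
Rian promoter window, chr12:109603695-109603994, + strand: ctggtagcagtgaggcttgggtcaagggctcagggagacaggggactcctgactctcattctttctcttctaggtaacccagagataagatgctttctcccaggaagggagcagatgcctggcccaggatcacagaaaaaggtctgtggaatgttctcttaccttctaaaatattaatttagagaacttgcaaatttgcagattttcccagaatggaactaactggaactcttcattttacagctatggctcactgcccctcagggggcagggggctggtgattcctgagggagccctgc
Snhg11 promoter window, chr2:158375463-158375762, + strand: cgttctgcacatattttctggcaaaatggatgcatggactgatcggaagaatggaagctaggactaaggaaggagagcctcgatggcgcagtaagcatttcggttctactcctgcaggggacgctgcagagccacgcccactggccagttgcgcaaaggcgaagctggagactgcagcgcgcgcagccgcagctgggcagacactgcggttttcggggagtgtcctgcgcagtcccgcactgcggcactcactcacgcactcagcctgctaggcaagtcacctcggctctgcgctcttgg
In the Meg3 window the capitals mark CCAAT beginning 100 bases before the start, the cAMP response element TGACGTCA at 57 before, and TATAAA at 25 before, which overlaps a TATAAA on the other strand at 29 before. Of 32851 windows of this length, 37.4% held CCAAT, 1.79% held TGACGTCA and 13.6% held TATAAA, on either strand. The GC box GGGCGG (35.7% of windows) and TTCAGCACC, one part of the REST element (0.371%), matched none of the 3 windows shown. A second annotated Meg3 start, at chr12:109545148-109545447, matched none of the 5 motifs. The Meg3 window shown held 13 CpG dinucleotides, that of Snhg11 held 21 and that of Rian held 0. No factor's binding or methylation was measured, and a match is only a match of letters.

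One array of the 18, replicate 1 of the control spinal cord, was not used, since its correlation with the others across probe sets was 0.0104 to 0.0143. The remaining 17 correlated at 0.957 to 0.985, and their median signals lay between 207 and 226. The control spinal cord group therefore has 2 arrays, and all other groups have 3. The number of arrays limits the precision throughout. Marker genes bore on the labelled regions. All 5 Hox genes of the spinal level were lower in the oculomotor arrays in all 3 conditions, with a summed signal of 127 to 346 there and 5092 to 6443 in the cord, and Hoxc8 and Hoxb5 had means below 25 in the oculomotor nucleus of 6-week mutants. All 5 monoamine neuron genes tested were higher in the oculomotor arrays in all 3 conditions, with sums of 6377 to 10092 against 716 to 1015, and the serotonin transporter gene Slc6a4 had a mean below 25 in every cord group. All 4 motor neuron genes tested (Chodl, Prph, Slc18a3 and Slc5a7) were lower in the oculomotor arrays, with sums over 6 genes of 587 to 780 against 2477 to 3022. Summed signals of 4 pituitary hormone genes varied widely among oculomotor arrays. They were 620 to 1503 in 6-week mutants, 835 to 6305 in controls and 422 to 23307 in 10-week mutants. The cord arrays had sums of 280 to 433, 272 to 276 and 218 to 268 in the same order.

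Signals below are the deposited intensity values of single probe sets, in the array software's scaled units, and are compared only between arrays for the same probe set. Each is given for replicates 1, 2 and 3 in that order, or 2 and 3 for control spinal cord. How often arrays of different groups were free of overlap was not counted over all probe sets. Statements on overlap, here and below, therefore only describe the arrays.

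Meg3 stood higher in the oculomotor nucleus than in the spinal cord on every array of the mutants, at both ages and with all 5 probe sets. Probe set 1439380_x_at, whose suffix marks a set that may cross-hybridise, is the Meg3 set with the highest mean signal. In the oculomotor nucleus it read 5986, 6262 and 5781 in 6-week mutants, 5037, 5665 and 4114 in controls, and 6430, 7399 and 5765 in 10-week mutants. In the spinal cord it read 3029, 2514 and 2659 in 6-week mutants, 3881 and 3020 in controls, and 3756, 4160 and 4684 in 10-week mutants. Both control spinal cord arrays lay below all 3 control oculomotor arrays, and the 6-week mutant cord was lowest in mean. Probe set 1426758_s_at, which is shared by several transcripts, was the steadiest in the 6-week oculomotor arrays, at 4264, 4258 and 4242, against 1308, 1219 and 1271 in the cord of the same age. It read 3360, 3943 and 2292 in control oculomotor nucleus and 1995 and 1585 in control cord. At 10 weeks the mutants read 4311, 4204 and 4466 in the oculomotor nucleus and 1664, 2339 and 2489 in the cord. In all 3 conditions the lowest oculomotor array of this set lay above the highest cord array, with the smallest gap in the controls.

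The remaining Meg3 probe sets had the same order of regions. For 1436057_at the oculomotor arrays read 2580, 2448 and 2249 in 6-week mutants, 2088, 2929 and 1767 in controls, and 2844, 3037 and 2423 in 10-week mutants. Its cord arrays read 834, 688 and 783, then 1407 and 1101, then 1254, 1381 and 1461, so that no cord array reached the lowest oculomotor array. For 1436713_s_at the 6-week mutants were the lowest condition in both regions, with 2694 to 3050 in the oculomotor nucleus and 806 to 1392 in the cord. The 10-week arrays of this set read 3134 to 4265 in control and 3773 to 4018 in mutant oculomotor nucleus, and 2055 to 2277 in control and 1466 to 2135 in mutant cord. For 1452183_a_at the control ranges of the regions overlapped, at 2689 to 4593 in the oculomotor nucleus and 1602 to 2836 in the cord. Its mutant ranges did not, with 4632 to 4933 against 1597 to 2099 at 6 weeks and 4645 to 6185 against 2269 to 3339 at 10 weeks.

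The 3 Rian probe sets were less alike than those of Meg3. The dimmest, 1428055_at, read 366, 673 and 511 in the oculomotor nucleus of 6-week mutants, 344, 319 and 318 in that of controls, and 782, 560 and 629 in that of 10-week mutants. In the cord it read 147, 92.1 and 97.5 in 6-week mutants, 254 and 171 in controls, and 236, 289 and 349 in 10-week mutants. The regions did not overlap in any of the 3 conditions, and the cord of 6-week mutants was below every other array. Probe set 1427580_a_at, which covers several transcripts of the gene, read 1627, 1503 and 1737 in the oculomotor nucleus of 6-week mutants and 2669, 2023 and 2312 in that of 10-week mutants. In control oculomotor nucleus it read 1594, 815 and 1648, and in control cord 1195 and 1142, so that replicate 2 of the controls lay below both cord arrays. Its mutant cord arrays read 928, 855 and 839 at 6 weeks and 857, 1366 and 1365 at 10 weeks.

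The third Rian probe set, 1452899_at, had the smallest regional difference of the 9 sets at 6 weeks. It read 1694, 1537 and 1774 in the oculomotor nucleus of 6-week mutants and 1519, 1313 and 1392 in their cord. In controls it read 1433, 375 and 1700 in the oculomotor nucleus and 1081 and 1293 in the cord. At 10 weeks the mutants read 2395, 2023 and 2180 in the oculomotor nucleus and 599, 1283 and 1220 in the cord, the widest separation for this set. The value of 375 was again control oculomotor replicate 2, the array on which 1427580_a_at and Snhg11 were the lowest of their group while all 5 Meg3 sets were the highest of theirs.

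Snhg11, measured by 1434292_at, was highest at 10 weeks in the oculomotor nucleus. There it read 1943, 1352 and 2236 in 6-week mutants, 3911, 2215 and 3732 in controls, and 3326, 3831 and 3142 in 10-week mutants. In the cord it read 759, 450 and 753 in 6-week mutants, 848 and 2199 in controls, and 2133, 1774 and 1725 in 10-week mutants. The 6-week oculomotor arrays overlapped the 10-week mutant cord arrays, and the 2 control cord arrays lay far apart.

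**Figure D1:**
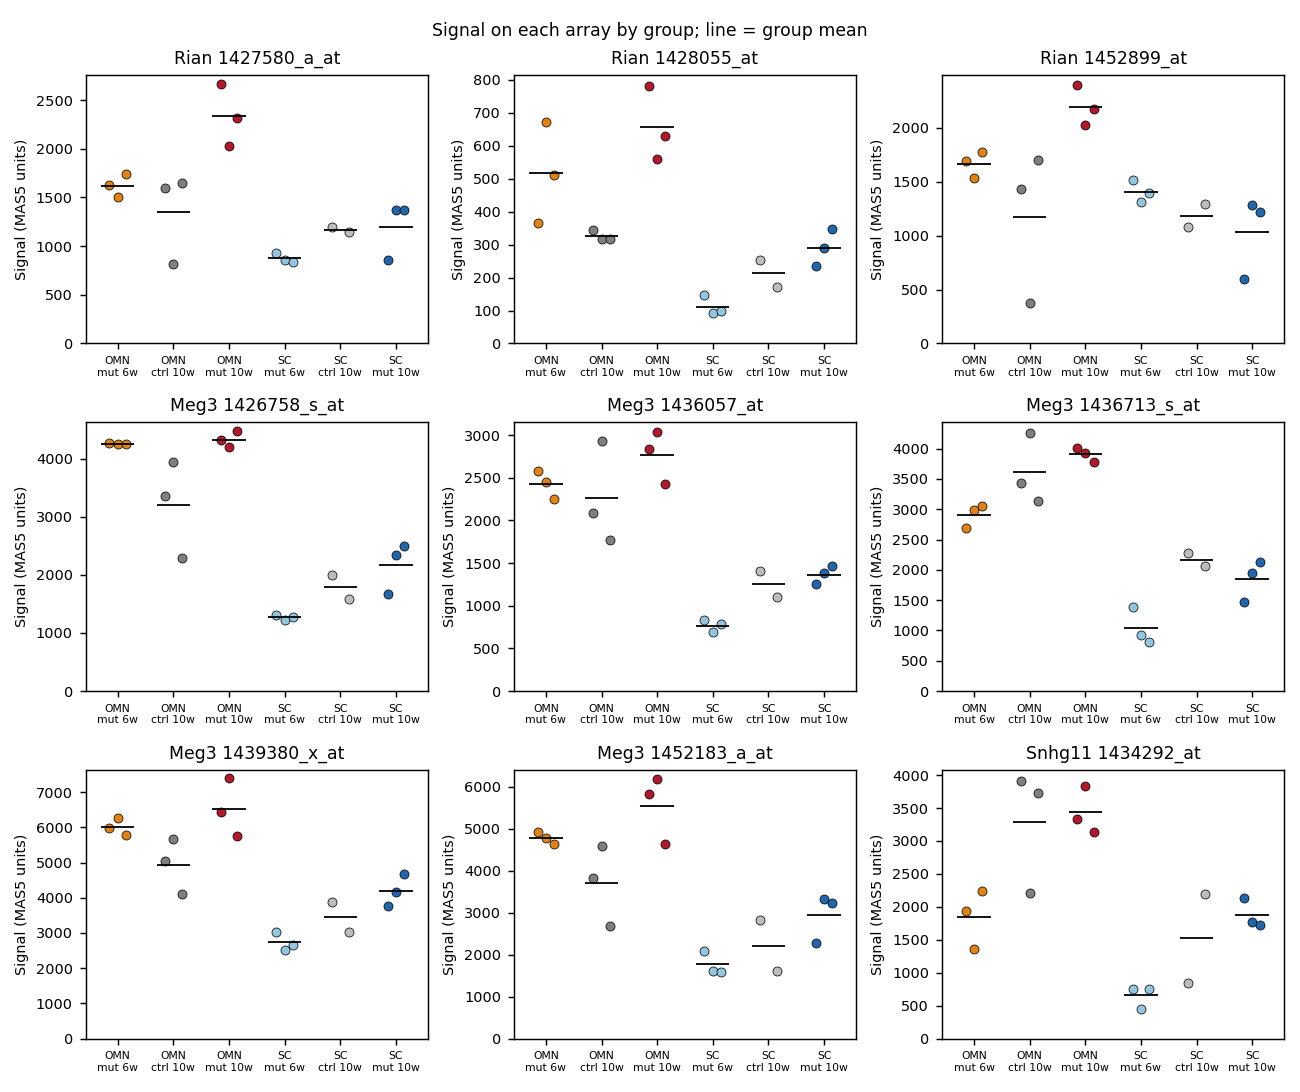
Each panel plots the signal of 1 probe set (vertical axis, scaled array units, starting at 0) on each of 17 arrays, with points for arrays grouped by region (OMN, oculomotor nucleus; SC, spinal cord), genotype and age, and a line at the group mean. The highest mean is that of 10-week mutant oculomotor nucleus in all 9 panels, and the lowest is that of 6-week mutant spinal cord in 8, the exception being Rian 1452899_at. How many of all probe sets share this order was not counted.

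Ordered by group means, 10-week mutant oculomotor nucleus came first for all 9 probe sets, with means from 657 ± 113 (SD, n = 3; Rian 1428055_at) to 6531 ± 822 (SD, n = 3; Meg3 1439380_x_at). It overlapped the next group for 7 of them and stood clear of it for Rian 1427580_a_at and 1452899_at. The cord of 6-week mutants came last for 8, with means from 112 ± 30.1 (SD, n = 3; Rian 1428055_at) to 2734 ± 266 (SD, n = 3; Meg3 1439380_x_at). For 6 of these 8 it did not overlap its neighbour in the order, and for Meg3 1439380_x_at and 1452183_a_at it overlapped control cord. For Rian 1452899_at the last place was that of 10-week mutant cord, at 1034 ± 378 (SD, n = 3), which overlapped control oculomotor nucleus at 1169 ± 701 (SD, n = 3). For Snhg11 the 10-week mutant cord, at 1877 ± 223 (SD, n = 3), was level with the 6-week mutant oculomotor nucleus at 1844 ± 450 (SD, n = 3). How many of all probe sets share such an order was not counted, and regional values chose the genes. Nothing is therefore read from the order.

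On the log2 scale, after adding 25 to each signal, the oculomotor nucleus exceeded the cord of 6-week mutants most in Rian 1428055_at, by 1.96 (SE 0.20, 3.90-fold), and least in Rian 1452899_at, by 0.24 (SE 0.36). The 5 Meg3 sets differed by 1.13 to 1.73, or 2.19-fold to 3.32-fold, and Snhg11 by 1.47 (SE 0.28, 2.77-fold). In controls of 10 weeks the differences were smaller for all 9 sets: 0.51 to 0.82 for Meg3, 0.59 (SE 0.23), 0.14 (SE 0.23) and -0.27 (SE 0.41) for Rian 1428055_at, 1427580_a_at and 1452899_at, and 1.21 (SE 0.31) for Snhg11. In mutants of 10 weeks they were 0.63 to 1.09 for Meg3, 0.97 to 1.14 for Rian and 0.86 (SE 0.28) for Snhg11. These come from 1 fit of all groups with limma and are descriptions, since regional values chose the genes. The 6-week value of Rian 1428055_at depends on the amount added, because its cord signals are low, and was 1.52 with 100 added. The sign of the control difference of Rian 1452899_at and 1427580_a_at depends on single oculomotor arrays. Without control replicate 1, 2 or 3 it was -0.54, 0.39 or -0.66 for the former, and -0.01, 0.46 or -0.03 for the latter. Without control cord replicate 2 or 3 that of Snhg11 was 0.53 or 1.88, that of Meg3 1452183_a_at 1.16 or 0.35, that of Meg3 1439380_x_at 0.69 or 0.33, and that of Rian 1428055_at 0.84 or 0.33.

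**Figure D2:**
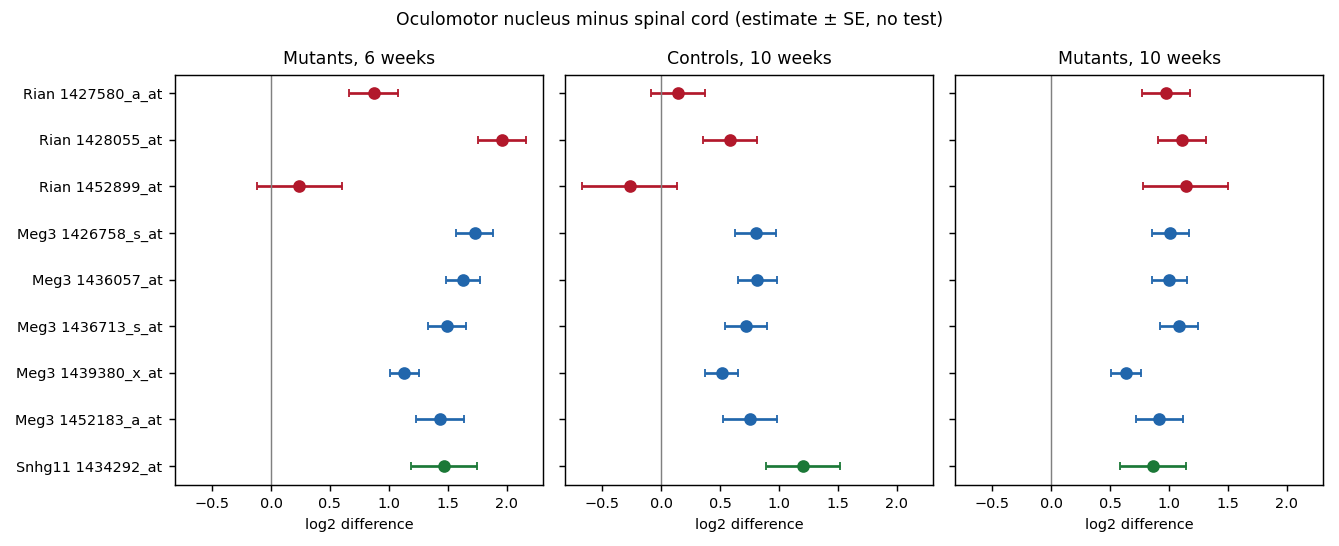
The points show the log2 difference between oculomotor nucleus and spinal cord for each probe set in 3 conditions, with bars of 1 SE. In mutants all 9 points lie right of 0, from 0.24 to 1.96 at 6 weeks and from 0.63 to 1.14 at 10 weeks, and in controls 8 of 9 do.

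Of the 9 probe sets, 7 were at least 2-fold higher in the oculomotor nucleus of 6-week mutants, 1 in that of controls and 5 in that of 10-week mutants. Over all 13575 probe sets tested the shares were 1.00%, 0.928% and 0.891%, and nothing is read from that contrast since the genes were chosen from it. The medians of the 9 were 1.47, 0.72 and 1.00, beside 0.03, 0.01 and 0.00 over all sets tested. The arrays of the 2 regions did not overlap for any of the 9 in the mutants of either age, and overlapped for Rian 1427580_a_at, Rian 1452899_at and Meg3 1452183_a_at in the controls. The share of all sets without overlap was not counted, and nothing is read from this either. In whole tissue, fewer cells of a type and less RNA per cell cannot be told apart.

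General neuronal markers were called in both directions. Of 16 neuron genes tested, 6 passed the test upwards and 2 downwards in 6-week mutants (limma's adjusted p under 0.05, a call in what follows), 3 and 2 in controls, and 4 and 2 in 10-week mutants. Over all probe sets 12.2% were called higher and 11.7% lower at 6 weeks, 6.62% and 6.94% in controls, and 9.30% and 9.99% in 10-week mutants. The list's medians were 0.19, -0.02 and 0.02. Syt1, a synaptic vesicle calcium sensor, was higher by 1.36, 1.62 and 1.60, and Gap43, a growth cone protein, by 1.31, 1.31 and 1.47. The neurofilament gene Nefm was lower, at -0.79, -0.93 and -0.86. Summed over the 16 genes, the signal ran from 70107 to 77478 in the oculomotor arrays and from 68229 to 81870 in the cord arrays, and none of the 16 was near background in any group. Calls among oligodendrocyte, microglial and connective tissue markers were all downward in the oculomotor arrays, and those among astrocyte markers went both ways. Of 9 oligodendrocyte genes 5, 9 and 7 were called lower and 0 higher in the 3 conditions, and of 6 microglial genes 5, 4 and 5 were lower and 0 higher. All 7 genes of meninges and fibroblasts were lower in each condition, and 4, 3 and 4 of 8 astrocyte genes were lower while 2, 1 and 1 were higher. The astrocyte gene called higher in all 3 conditions was the glutamate transporter gene Slc1a3, named here after its values were seen, at 0.59, 1.00 and 0.67. Their part in the regional differences of Rian, Meg3 and Snhg11 was not tested.

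Between mutants and controls of 10 weeks, Rian was higher in the oculomotor nucleus of the mutants with 2 of its 3 probe sets. Rian 1428055_at read 560 to 782 in the mutants and 318 to 344 in the controls, with no overlap, a log2 difference of 0.94 (SE 0.21, 95% interval 0.51 to 1.37, 1.92-fold, limma's adjusted p = 0.0246). Rian 1427580_a_at read 2023 to 2669 against 815 to 1648, a difference of 0.83 (SE 0.21, 1.78-fold, limma's adjusted p = 0.0489), just inside the threshold. Rian 1452899_at was apart too, at 2023 to 2395 against 375 to 1700, with an estimate of 1.15 (SE 0.36, limma's adjusted p = 0.118) that fell to 0.48 without control replicate 2 (adjusted p = 0.350). The lowest mutant array lay above the highest control array for all 3, without a share over all sets to set beside it.

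The Rian calls were not firm, and whether 10-week values entered the choice of the genes is not recorded. Both were lost without control oculomotor replicate 1, without control replicate 2, without 10-week mutant replicate 1 and without mutant replicate 3. The estimates of Rian 1428055_at in these 4 fits were 0.98, 0.93, 0.82 and 0.97, against 0.94 with all arrays. Those of 1427580_a_at were 0.98, 0.51, 0.73 and 0.84, against 0.83, so that its size too depends on control replicate 2. Leaving out any other single array left 1 call, except 10-week mutant cord replicate 1, without which both stayed. Without both oculomotor arrays that carried high pituitary hormone signals (control replicate 3 and 10-week mutant replicate 2) the differences were 1.03 and 1.11 and limma's adjusted p 0.107 and 0.0598. Without a filter on dim probe sets they were 0.94 and 0.83, with adjusted p of 0.0649 and 0.106.

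Meg3 and Snhg11 did not pass the test in the oculomotor nucleus. The Meg3 differences, mutant against control, were 0.47 (SE 0.16), 0.31 (SE 0.15), 0.12 (SE 0.16), 0.41 (SE 0.13) and 0.60 (SE 0.20) for 1426758_s_at, 1436057_at, 1436713_s_at, 1439380_x_at and 1452183_a_at. Limma's adjusted p-values for these ran from 0.111 to 0.783. The mutant arrays were all above the control arrays for 1426758_s_at, 1439380_x_at and 1452183_a_at and overlapped them for the other Meg3 sets. All 5 were smaller without control replicate 3, at 0.25, 0.15, 0.03, 0.28 and 0.39, and larger without control replicate 2, at 0.64, 0.52, 0.25, 0.51 and 0.78. Snhg11 differed by 0.10 (SE 0.28, 95% interval -0.49 to 0.69, limma's adjusted p = 0.914), and this turned to -0.16 without control replicate 2. So 2 of 9 sets were called higher and 0 lower, beside 1.04% higher and 0.435% lower among all sets tested. All 9 estimates were above 0, 7 had an unadjusted p under 0.05 in limma (2024 of 13575 did overall), and their median was 0.47 beside -0.01. Sets of the same gene share its RNA, so these are not 9 separate results.

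Other markers were set beside the same comparison. None of 16 neuron genes was called, and their summed signal was 70107 to 73620 in controls and 72080 to 75704 in mutants. The sum of 9 oligodendrocyte genes was 36653 to 40064 in control and 45760 to 51311 in mutant oculomotor nucleus, with 1 called higher (Cnp, 0.52, adjusted p = 0.0384). The sum of 8 astrocyte genes was 22044 to 23418 in controls and 25106 to 27017 in mutants, with 1 called higher (Aldoc, 0.43, adjusted p = 0.0226). For the 7 microglial genes on the array it was 3747 to 3988 against 4280 to 4392, with 1 of 6 tested called higher (Cx3cr1, 1.02, adjusted p = 0.00327). The 5 monoamine genes summed to 6976 to 7594 against 8201 to 10092, with 1 called higher (Slc6a4, 0.82, adjusted p = 0.0212). These p-values are limma's over all sets tested, no marker of these lists had a mean below 25 in either group, and their part in the Rian difference was not tested. The sums weigh a list's brightest genes most. Median log2 differences were 0.15 for oligodendrocyte, 0.02 for astrocyte, 0.12 for microglial and 0.04 for monoamine genes. Each of these lists also held lower estimates, such as Gjb1 (-0.29), Gfap (-0.15), Tyrobp (-0.23) and Slc6a3 (-0.31).

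Among 10 other long noncoding RNAs tested, 2 were called higher and 0 lower in the mutant oculomotor nucleus. Over all sets tested 1.04% were called higher and 0.435% lower. This list too was chosen with earlier results of these data known, so its p-values may be too favourable. Malat1, a nuclear speckle RNA, read 8433, 4132 and 4561 in the mutants and 121, 269 and 222 in the controls, a log2 difference of 4.63 (SE 0.47, limma's adjusted p = 0.000105). Its 6-week mutant oculomotor arrays read 3889, 8113 and 6733. Norad, a cytoplasmic RNA that binds Pumilio proteins, differed by 0.37 (SE 0.09, limma's adjusted p = 0.0421). The Malat1 arrays of the mutants and controls did not overlap. In the cord its genotype difference was 2.41 (SE 0.52, limma's adjusted p = 0.0991). Only the brightest Malat1 probe set was examined here.

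In the spinal cord of 10 weeks no Rian, Meg3 or Snhg11 probe set passed the test of genotype, with 3 arrays against 2. The log2 differences ran from -0.27 (Rian 1452899_at) to 0.44 (Snhg11, 95% interval -0.21 to 1.10), with a median of 0.26 beside 0.00 over all sets. None of the 9 had an unadjusted p under 0.05 in limma, and 0.0221% of all sets were called in either direction. For Rian 1428055_at the difference was 0.42 (95% interval -0.06 to 0.90), for 1427580_a_at 0.00 (95% interval -0.48 to 0.49). The regions were also compared directly, which is the same as comparing the regional differences of 10-week mutants and controls. The genotype difference in the oculomotor nucleus minus that in the cord was 0.83 (SE 0.31) for Rian 1427580_a_at and 1.41 (SE 0.54) for Rian 1452899_at. The unadjusted p-values of these were 0.0146 and 0.0179, and limma's adjusted p was 0.747 for both. For Rian 1428055_at the value was 0.53 (95% interval -0.12 to 1.17), and its unadjusted p and those of the other 6 sets did not fall under 0.05. None of the 9 was called, as was the case for all sets tested (0%, with 835 of 13575 at an unadjusted p under 0.05). A difference of genotype effect between the regions was thus not shown for these genes.

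From 6 to 10 weeks the spinal cord of the mutants gained signal in probe sets of all 3 genes. Snhg11 differed most, with 450 to 759 at 6 weeks and 1725 to 2133 at 10 weeks, a log2 difference of 1.52 (SE 0.28, 2.86-fold). Rian 1428055_at read 92.1 to 147 at 6 weeks and 236 to 349 at 10 weeks, a difference of 1.21 (SE 0.21, 2.32-fold). The Meg3 differences were 0.74 (SE 0.16) for 1426758_s_at, 0.81 (SE 0.15) for 1436057_at, 0.83 (SE 0.16) for 1436713_s_at, 0.61 (SE 0.13) for 1439380_x_at and 0.72 (SE 0.20) for 1452183_a_at. No 6-week cord array reached the lowest 10-week mutant cord array for Snhg11, Rian 1428055_at or any Meg3 set.

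The other Rian sets differed less or the other way. Rian 1427580_a_at differed by 0.41 (SE 0.21), with 10-week replicate 1 (857) inside the 6-week range. For 1452899_at the difference was -0.51 (SE 0.36), and all 3 arrays of 10 weeks (599, 1283 and 1220) lay below those of 6 weeks (1313 to 1519). Replicates 2 and 3 lay just under the lowest 6-week array, and without replicate 1 the difference was -0.17.

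These values are a description, because the 6-week cord arrays entered the regional difference for which Rian was chosen, and a high difference favours low cord arrays. In limma 6 of the 9 sets had an adjusted p under 0.05 upwards and 0 downwards, beside 1.78% and 0.972% of all sets tested, and nothing is read from that count. It was 2 without 6-week mutant cord replicate 2, 4 without 6-week cord replicate 3 or 10-week mutant cord replicate 3, 3 in a fit of the 6 arrays of the contrast alone, and 0 with the discordant control array included. The 10-week controls were set beside the 6-week mutants only by their ranges. Both control cord arrays lay above all 6-week mutant cord arrays for 6 of the 9 sets, overlapped them for Meg3 1439380_x_at and 1452183_a_at, and lay below them for Rian 1452899_at. No share over all sets was counted for these ranges, and nothing is read from them.

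In the same comparison 1 of 16 neuron genes was called higher (Nefl, a neurofilament gene, 0.34, limma's adjusted p = 0.0445), and the list's median was 0.04. Its summed signal was 68229 to 72465 at 6 weeks and 71482 to 81870 at 10 weeks. Of 7 genes of meninges and fibroblasts, 4 were called lower (Col1a1, Col1a2, Col3a1 and Ogn, by limma), and the sum fell from 8606 to 9037 at 6 weeks to 4515 to 6192 at 10 weeks. The sum of 8 astrocyte genes was 32596 to 33414 at 6 weeks and 35710 to 39290 at 10 weeks, with 1 called higher (Aldoc, 0.49, limma's adjusted p = 0.0118). That of microglial genes was 6286 to 6646 and 6890 to 8348, with 0 of 6 called. No gene of these lists had a mean below 25 in either group. Their part in the differences of Meg3, Rian and Snhg11 was not tested.

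In the oculomotor nucleus of the mutants the 10-week means were above the 6-week means for all 9 probe sets, with a median log2 difference of 0.36 beside 0.00 over all sets tested. Snhg11 had the largest, 0.91 (SE 0.28, 95% interval 0.33 to 1.50), and its 10-week arrays were all above the 6-week arrays. Rian 1427580_a_at differed by 0.51 (95% interval 0.08 to 0.94) and Meg3 1436713_s_at by 0.42 (95% interval 0.08 to 0.77). Meg3 1426758_s_at differed by 0.02 (95% interval -0.31 to 0.36). In limma 0 of the 9 had an adjusted p under 0.05 and 3 an unadjusted one, beside 0.0221% of all sets called in either direction, and nothing is read from these counts either. The change with age was not tested between the regions, because that difference is the change of the regional difference from which the genes were chosen.

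**Figure D3:**
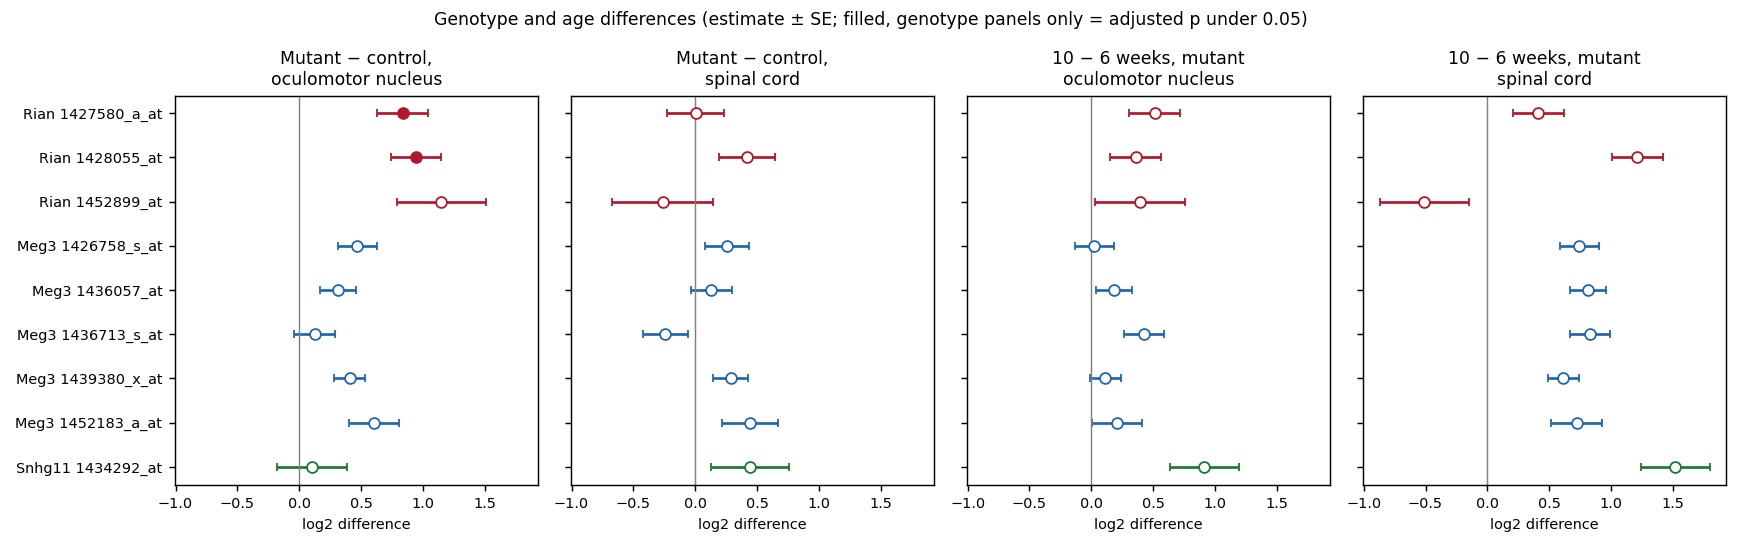
The points show log2 differences of the 9 probe sets, mutant minus control at 10 weeks and 10 minus 6 weeks in mutants, in each region, with bars of 1 SE. In the genotype panels a filled point has an adjusted p under 0.05 in limma (2 Rian sets, 0.83 and 0.94, in the oculomotor nucleus), and in the age panels all points are open, as those values are a description, with 8 of 9 right of 0 in the cord.

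Of the other genes of the Dlk1-Dio3 list, Dlk1 was matched to the array, and Rtl1, Mirg, Dio3, Begain and Wdr25 were not analysed here. Dlk1, a membrane protein with epidermal growth factor repeats, read 944 to 1339 over the 9 oculomotor arrays and 325 to 664 over the 8 cord arrays, with no overlap. It was higher in the oculomotor nucleus by 1.50 (SE 0.18, limma's adjusted p = 9.24e-06) in 6-week mutants, 1.07 (SE 0.20, adjusted p = 0.00128) in controls and 1.20 (SE 0.18, adjusted p = 0.000112) in 10-week mutants. Its genotype differences were -0.01 in the oculomotor nucleus and -0.14 in the cord. Its age differences were 0.00 in the oculomotor nucleus and 0.29 in the cord (limma's adjusted p = 0.380). The Dlk1-Dio3 list and the lists below were chosen with earlier results of these data known. Their p-values and calls for the regions may therefore be too favourable.

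Imprinted genes elsewhere in the genome gave calls in both directions. Of 34 listed, 28 were on the array and 19 were tested, of which 11 were higher and 4 lower in the oculomotor nucleus of 6-week mutants, 6 and 2 in controls and 8 and 3 in 10-week mutants. Their medians were 0.45, 0.17 and 0.18. Nnat, a small membrane proteolipid of developing brain, was higher by 1.77, 1.69 and 1.68. Cdkn1c, a cyclin-dependent kinase inhibitor, was at -2.18, -1.88 and -1.83 in 6-week mutants, controls and 10-week mutants. Dcn, an extracellular proteoglycan also listed among the meningeal genes, was at -1.27, -1.22 and -0.93 in the same order. In that order Peg3, a zinc finger gene, was higher by 0.77, 0.55 and 0.80, and Blcap by 0.59, 0.69 and 0.76. Ndn, a neuronal growth suppressor, was higher by 0.65 in 6-week and 0.66 in 10-week mutants, and its 0.28 in controls was not called. None of the 19 was called for genotype or age by limma. Of the 10 other long noncoding RNAs tested, 4 were higher and 0 lower in the oculomotor nucleus of 6-week mutants, 1 and 1 in controls, and 2 and 1 in 10-week mutants. Tug1 was higher in all 3, by 0.38, 0.54 and 0.75, and Neat1, the scaffold of paraspeckles, was lower in controls and 10-week mutants, at -0.69 and -0.67. None of the 10 was called for age in either region.

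Across the 17 arrays the 5 Meg3 sets correlated with each other at 0.859 to 0.984 (Pearson's r of log2 signals, given as a description, since the arrays share regions and groups). Rian 1428055_at followed Meg3 1439380_x_at at 0.944, and at 0.656 within the 9 oculomotor arrays and 0.988 within the 8 cord arrays. Rian 1427580_a_at followed the same Meg3 set at 0.739, with 0.259 and 0.776 within the regions. Rian 1452899_at did so at 0.230, with 0.170 and -0.365. Between Rian sets the correlation also depended on region. The sets 1427580_a_at and 1452899_at correlated at 0.947 in the oculomotor nucleus and 0.172 in the cord, with control oculomotor replicate 2 the lowest oculomotor array of both. Snhg11 correlated with the Meg3 sets at 0.630 to 0.809 over all arrays, with -0.427 to 0.475 within the oculomotor arrays and 0.397 to 0.741 within the cord arrays.

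**Figure D4:**
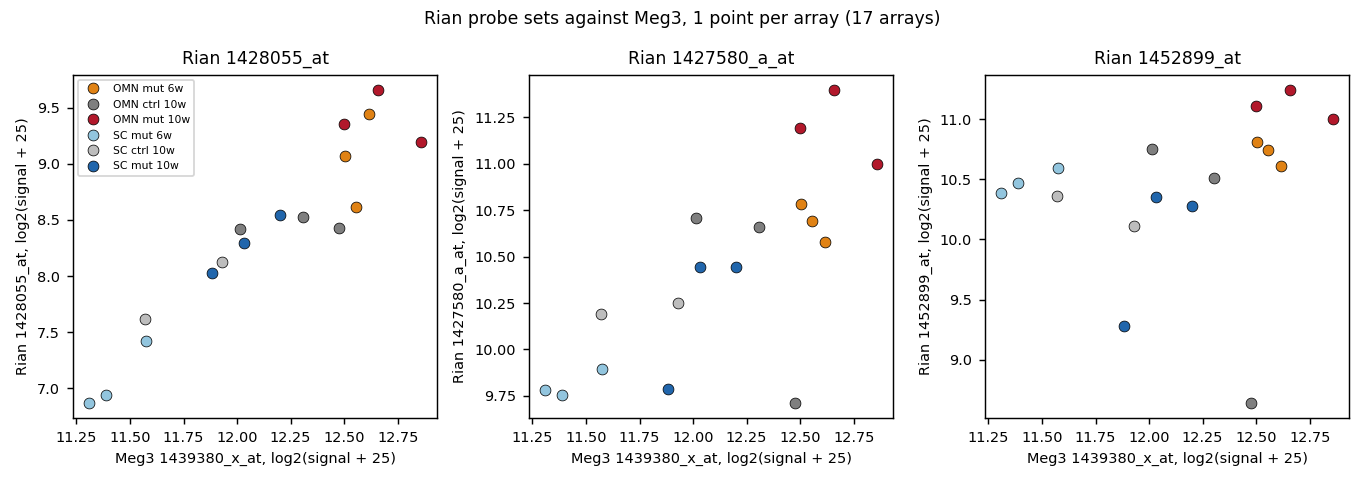
Each point is 1 of 17 arrays, plotted by its log2(signal + 25) for Meg3 1439380_x_at (horizontal) and for 1 Rian probe set (vertical), coloured by group. Rian 1428055_at rises with Meg3 (r = 0.944), 1427580_a_at less closely (r = 0.739), and 1452899_at hardly (r = 0.230), with 1 control oculomotor array at the bottom of the last 2 panels.

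Among all tested probe sets with 1 other symbol, those most like Meg3 1439380_x_at over the 17 arrays were Myt1l (r = 0.968), Pabpn1 (0.959), Dgat1 (0.952), Srek1 (0.947) and Rian 1428055_at (0.944). Those most like Snhg11 were Zgpat (0.930), Uqcc1 (0.892), Abhd8 (0.890), Rnf14 (0.883) and Tmem183a (0.876). For Rian, by its set with the highest mean signal, 1452899_at, they were Max (0.797), Mrpl44 (0.791), Mapk8ip2 (0.781), Ssbp3 (0.781) and Csnk2a1 (0.778). Taken as deviations from group means, the closest were Mxra8 (0.889) for Meg3, Ergic3 (0.860) for Snhg11 and Prkag2 (0.892) for Rian, and none of the 5 closest genes was then among the 5 closest by level. The regional differences of Myt1l, a neuronal transcription factor, were 1.88 in 6-week mutants, 1.10 in controls and 0.87 in 10-week mutants.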

How the data were processed

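Total RNA of 18 samples was labelled with biotin and hybridised to Affymetrix mouse 430A arrays, per the labels. The intensity values analysed are MAS5 signals that the authors deposited, linear and scaled per array, with a trimmed mean of 499.96 to 499.97. After removal of 64 control probe sets from 22690, 25 was added and log2 taken. The 40% with the lowest mean were left out (limit 7.38), which left 13575, all 9 of Rian, Meg3 and Snhg11 among them. Means of 6 groups were fitted with limma 3.58.1 in R 4.3.3 (eBayes with a trend, 11 residual degrees of freedom), with Benjamini-Hochberg adjustment within each contrast, and steps were tested on simulated data. Symbols came from the array's annotation (20380 probe sets with 1, 691 with several, 1555 with none). Of these, 20351 matched the RefSeq table by gene ID, and 0 changed. A listed gene is represented by its brightest probe set. Named are all probe sets of the 3 genes, measured genes of the Dlk1-Dio3 list, up to 4 called genes of smallest p per list and contrast, the 5 genes most correlated with each member (by level, and by deviation from group means, of which the first is printed), Malat1, and chromosomal neighbours. Listed marker genes named to check the regions follow the same rule. Members and lists were chosen with earlier results of these data known. The age contrasts were planned as tests and are given as descriptions for the members, since their 6-week arrays entered the regional difference of Rian. Alternatives were other normalizations, offsets, filters, variance models, array sets, a replicate block and leaving out each array.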

Additional observations from a re-analysis of the deposited data

Results flagged for a closer look

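The age estimates of Rian 1452899_at had opposite signs in the regions of the mutants. All 10-week oculomotor arrays were above the 6-week arrays and all 10-week cord arrays were below them, and the log2 differences of 0.39 and -0.51 lie 0.90 apart. The cord value depends on 10-week mutant replicate 1 and was -0.17 without it. The difference between the regions was not tested.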

How the results depend on the processing

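For genotype in the oculomotor nucleus, 2 of the 9 probe sets were called. This was 1 with quantile normalization, with signals floored at 25, with a filter of 60% (where Rian 1428055_at is not tested), with eBayes without a trend and with only the arrays of the contrast. It was 0 with no filter, with all 18 arrays and without both arrays high in pituitary hormones, and 0 to 2 when single arrays were left out. Over all settings Rian 1428055_at was called in 19 of 27 alternatives and 1427580_a_at in 6 of 28. For age in the spinal cord, where the values are a description, 6 had an adjusted p under 0.05, 3 with only the arrays of the contrast, 0 with all 18 arrays and 2 to 7 when single arrays were left out. Over all probe sets the calls ranged from 1 to 392 (main 200) and from 0 to 451 (main 374) in these contrasts. In the other 3 contrasts 0 of the 9 were called in any alternative. The cause of these changes was not tested.

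Same-numbered samples hardly deviated together (pairwise correlations of -0.089 to 0.130 over the contrasts), and they were treated as unpaired. With so few arrays per group, this cannot tell whether same-numbered samples came from the same animal. With the replicate block 2 were called for genotype in the oculomotor nucleus and 7 for age in the spinal cord, and Rian 1427580_a_at was at -0.01 for genotype in the cord.

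Some small differences changed sign. For genotype in the cord Rian 1427580_a_at was -0.05 with median centring, and with all 18 arrays Rian 1452899_at was 0.05 and Meg3 1436713_s_at 0.64. For genotype by region all 18 arrays gave -0.96, -0.34, -0.51, -0.44 and -0.60 for Meg3 1426758_s_at, 1436057_at, 1436713_s_at, 1439380_x_at and 1452183_a_at. Without both arrays high in pituitary hormones, 1436057_at, 1439380_x_at and 1452183_a_at were -0.04, -0.10 and -0.13. Leaving out single arrays gave ranges across 0: Snhg11 for genotype in the oculomotor nucleus from -0.16 to 0.25, and in the cord Rian 1427580_a_at from -0.11 to 0.22, Rian 1452899_at from -0.45 to 0.08, Meg3 1436057_at from -0.05 to 0.30 and Snhg11 from -0.23 to 1.12. For genotype by region the ranges were -0.01 to 0.38 (Meg3 1426758_s_at), -0.06 to 0.30 (1439380_x_at), -0.24 to 0.57 (1452183_a_at) and -1.02 to 0.33 (Snhg11). The regional difference in controls crossed 0 for both Rian sets given above, from -0.66 to 0.39 for 1452899_at and from -0.03 to 0.46 for 1427580_a_at. The cord signals of Rian 1428055_at at 6 weeks are low against the offset, which limits its fold.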
